A study of Homo sapiens with 6 samples.

Results

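Long non-coding RNAs (lncRNAs) with nuclear or regulatory roles were followed in HT29 cells, a long-established line from a human colorectal adenocarcinoma, after knockdown of FITM2. The set was fixed by name: MALAT1, NEAT1, KCNQ1OT1, PVT1, TUG1, OIP5-AS1, NORAD, CCAT1, DANCR and CYTOR. Of these 10, 9 were found among the 58978 rows of the gene count table, and all 9 passed the filter on low counts that left 14809 genes for testing. CCAT1 was not analysed here under its own name. Cells with a control hairpin (shCTRL, 3 libraries, genotype given as WT) were compared with cells carrying a hairpin against FITM2 (shFITM2, 3 libraries, genotype given as FITM2 knockdown), and both groups are labelled untreated. FITM2 is an endoplasmic reticulum protein needed for the budding of lipid droplets, and by its title the series concerns lipid droplets, anti-tumour immunity and how IFNGR1, a chain of the interferon-gamma receptor, is trafficked. The labels name no hairpin sequence, clone or separate culture, so every p-value rests on the spread among the 6 libraries alone, and that spread may be technical. In such bulk samples, fewer cells that carry an RNA and less of it per cell cannot be told apart.

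lncRNAs are transcripts that act without being translated. Some stay at the site of their synthesis and shape nuclear bodies or the activity of neighbouring genes, and others work in the cytoplasm by binding proteins or microRNAs. MALAT1 gathers at nuclear speckles, where splicing factors are stored, and NEAT1 is the scaffold on which paraspeckles are built. KCNQ1OT1 is the antisense RNA of an imprinted domain, and PVT1 and CCAT1 lie on either side of MYC, in a region often amplified in colorectal cancer. TUG1 starts from a promoter shared with the divergent gene MORC2. NORAD is an abundant cytoplasmic RNA that sequesters Pumilio proteins such as PUM2, OIP5-AS1 binds the RNA-stabilizing protein ELAVL1 and a microRNA, and DANCR and CYTOR are lncRNAs best known for high levels in tumours.

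MALAT1 and the long form of NEAT1 lack a poly(A) tail and end in a triple helix formed between U-rich stretches and an A-rich one. The 3′ parts of both RNAs are shown because these are the 2 lncRNAs of the set whose counts need not follow those of polyadenylated RNA. The sequences are GENCODE release 29 transcripts, written 5′ to 3′ with T for U, and capitals mark 2 runs of 16 and 11 bases that both transcripts share within their last 450 bases.
MALAT1: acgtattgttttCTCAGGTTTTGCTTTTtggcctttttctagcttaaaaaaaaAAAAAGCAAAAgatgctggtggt
NEAT1: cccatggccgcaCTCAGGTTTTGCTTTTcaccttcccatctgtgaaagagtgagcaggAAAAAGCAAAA
Between the 2 runs lay 25 bases in MALAT1 and 30 in NEAT1. The annotated NEAT1 transcript ends with the second run, whereas the annotated MALAT1 transcript continues for 353 bases, a part that holds the tRNA-like RNA cut from it.

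The Pumilio sites of NORAD are shown because the mRNA of a protein partner was measured in the same libraries. The motif TGTANATA, searched on the transcript strand, was found 15 times in its 5339 bases, with no overlap between matches. The first, eighth and last match are shown with 16 bases on each side and the motif in capitals.
NORAD element 1: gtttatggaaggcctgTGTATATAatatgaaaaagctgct
NORAD element 8: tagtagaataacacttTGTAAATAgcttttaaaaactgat
NORAD element 15: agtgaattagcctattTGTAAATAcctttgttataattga
That is 2.81 matches per kilobase, against 0 to 0.27 in the longest transcripts of the other 8 lncRNAs. Among 1250 transcripts of tested genes within 10% of its length, 563 (45%) held at least 1 match, the median was 0, and 1 held at least as many as NORAD.

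The lncRNAs also differed in base composition, which bears on every fold change below. The stretches shown are the first 60 bases in each transcript whose share of G and C is nearest to that of the whole transcript, with G and C in capitals.
OIP5-AS1: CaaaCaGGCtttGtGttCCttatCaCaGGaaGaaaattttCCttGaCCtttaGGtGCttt
TUG1: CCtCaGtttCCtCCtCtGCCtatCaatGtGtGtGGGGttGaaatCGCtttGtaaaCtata
NEAT1: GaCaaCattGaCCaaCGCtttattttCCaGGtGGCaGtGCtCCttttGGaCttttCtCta
DANCR: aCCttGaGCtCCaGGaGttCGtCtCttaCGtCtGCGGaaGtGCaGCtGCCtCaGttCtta
OIP5-AS1 was the lowest in GC of the 9, at 38.4% of its longest transcript, and DANCR the highest, at 53.7%. NEAT1 (44.1%), KCNQ1OT1 (43.7%) and TUG1 (43.1%) lay within 1 percentage point of each other, MALAT1 (40.3%), NORAD (41.6%) and CYTOR (41.9%) lay between these and OIP5-AS1, and PVT1 stood at 52.2%.

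The libraries held 16964075 to 18855731 counts. FITM2 mRNA fell from 11.4 ± 1.59 to 5.26 ± 0.631 CPM (counts scaled to the library size; mean ± SD, n = 3 per group), which is −1.12 ± 0.157 on the log2 scale (fold change ± SE; adjusted p = 0.000242). The deviation of each library from the gene's mean log2 CPM over the 6 libraries followed transcript GC content. Its slope was −0.266, −0.335 and −0.065 log2 units per 10 percentage points in shCTRL and 0.261, 0.226 and 0.179 in shFITM2. These slopes are relative to that mean, so they show differences between libraries and not the direction within any single library. A second fit therefore carried a GC offset, which removes from every gene the trend of its library at that GC content. A real change that tracks GC content is taken out with it, and both fits are given for every lncRNA. The library of shCTRL replicate 3 stood apart from the other shCTRL libraries, with a chi-square per gene of 20.2 and 28.6 against them and 5.60 between those. Of 12 colorectal epithelial markers 11 reached 1 CPM, with a summed level of 10450 to 12630 CPM in shCTRL and 14350 to 15150 CPM in shFITM2, most of it from the keratins KRT8 and KRT18. Of these markers 8 were called higher and 1 (EPCAM) lower in the group fit, and 4 higher and 2 lower with the GC offset (median −0.00). Over all genes 48.7% were called in the group fit and 29.2% with the offset. Of 12 markers of leukocytes, fibroblasts and endothelial cells 3 reached 1 CPM. LYZ gave nearly all of the summed level of these 12, which was 779.6 to 929.1 CPM. Of 18 RNAs without a poly(A) tail, 12 were listed at 0 in every library. Their sum was 0.649 to 2.23 CPM in shCTRL and 4.94 to 7.25 CPM in shFITM2. RN7SL2, an RNA of the signal recognition particle, gave this difference, at 0.742, 0.379 and 1.64 CPM in shCTRL and 4.50, 7.13 and 7.02 CPM in shFITM2, while SCARNA6, the highest of the others, reached 0.293 CPM. The part of these RNAs in the values of MALAT1 and NEAT1 was not tested.

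In counts per length, NORAD stood highest of the lncRNAs in HT29 with both lengths used below. Whether the libraries were made from RNA selected by its poly(A) tail is not given in the sources used here. MALAT1 and the long form of NEAT1 lack that tail, so their places in the order are uncertain as measures of abundance. Levels between genes are CPM per kilobase of the gene length in the table. In shCTRL, NORAD stood at 138 CPM per kilobase, followed by DANCR at 38.6, MALAT1 at 23.3, TUG1 at 18.3, OIP5-AS1 at 10.8, NEAT1 at 7.89 and PVT1 at 5.55. CYTOR (0.338) and KCNQ1OT1 (0.163) were more than 10-fold lower than PVT1. On this scale the library ranges of neighbours in the order did not overlap in either group. The order in shFITM2 was the same except that NEAT1, at 11.9 CPM per kilobase, stood above OIP5-AS1, at 7.73. The order depended in part on the length used. Over the longest transcript, TUG1 (24.9 CPM per kilobase) and MALAT1 (23.7) overlapped in shCTRL, as did PVT1 (18.0) and OIP5-AS1 (15.5). DANCR rose to 97.6 there, beside 138 for NORAD. For NEAT1 both lengths are those of its long form, and levels over its shorter transcripts were not computed. The 9 lncRNAs together took 0.147% to 0.170% of all counts, and NORAD alone held 44.5% to 47.9% of theirs.

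**Figure D1:**
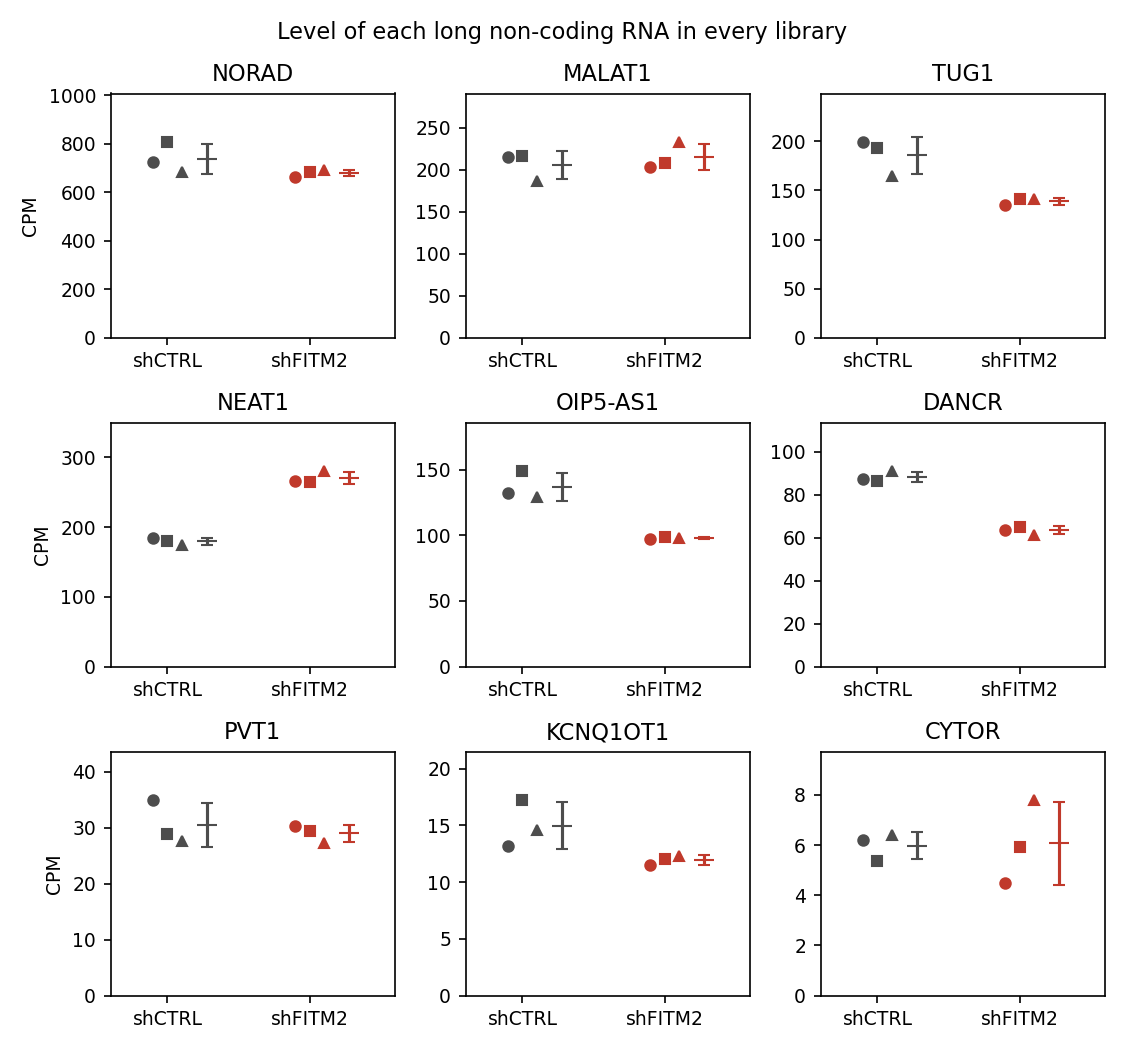
Level of the 9 lncRNAs in each library, in CPM on a linear axis from 0, with circles, squares and triangles for replicates 1, 2 and 3 of shCTRL (grey) and shFITM2 (red) and a bar for mean ± SD (n = 3). NEAT1 is higher in every shFITM2 library than in every shCTRL library, KCNQ1OT1, TUG1, OIP5-AS1 and DANCR are lower in every one, and the groups overlap for MALAT1, PVT1, NORAD and CYTOR.

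Of the 9 lncRNAs, NEAT1 rose and 4 fell (KCNQ1OT1, TUG1, OIP5-AS1 and DANCR) in shFITM2 in the group fit, which takes a gene as called at an adjusted p under 0.05. MALAT1, PVT1, NORAD and CYTOR were not called. Over all tested genes 48.7% were called, 24.2% higher and 24.5% lower, so 5 of 9 is near the background. With the GC offset 3 were called higher (NEAT1, MALAT1 and NORAD) and 2 lower (DANCR and TUG1), where 29.2% of all genes were called, 11.8% higher and 17.4% lower. NEAT1, DANCR and TUG1 were called in the same direction in both fits, as were 17.9% of all genes. The groups did not overlap in CPM for 1 lncRNA that was higher and 4 that were lower, against 59.0% of all tested genes, 29.1% higher and 29.9% lower. The median log2 fold change of the 9 was −0.12 in the group fit and −0.07 with the GC offset, beside −0.00 and −0.03 over all tested genes.

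**Figure D2:**
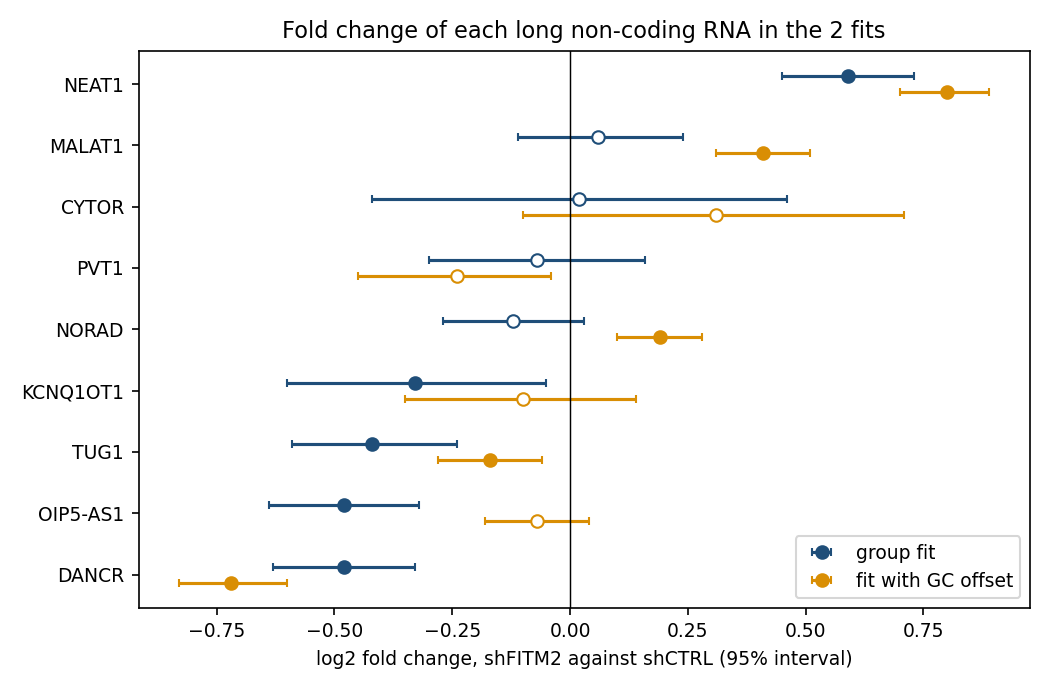
Log2 fold change of each lncRNA, shFITM2 against shCTRL, in the group fit (blue) and with the GC offset (orange), with 95% intervals; filled points were called at an adjusted p under 0.05 and open points were not. NEAT1 lies above 0 and TUG1 and DANCR below 0 in both fits, while MALAT1, NORAD, KCNQ1OT1 and OIP5-AS1 were called in 1 fit only.

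NEAT1, the paraspeckle scaffold (ENSG00000245532, chromosome 11, 65422774 to 65445540, plus strand, GRCh38, a lincRNA of 22767 bases), was the lncRNA of the set that rose in both fits. Its level was 185, 179.6 and 174 CPM in shCTRL and 266, 265 and 280.0 CPM in shFITM2. All 3 knockdown libraries lay well above all controls, with spreads of 5.41 and 8.48 CPM (SD) around means of 179.6 and 270.3. NEAT1 had a log2 fold change of 0.59 ± 0.0629 (SE; 95% interval 0.45 to 0.73; adjusted p = 6.5e-05), or 1.50-fold, and 0.80 ± 0.0443 with the GC offset (0.70 to 0.89; adjusted p = 1.08e-08). It stayed between 0.56 and 0.61 in the group fit with any 1 library left out. GENCODE lists 8 NEAT1 transcripts, and the gene's single count cannot separate the short, polyadenylated form, which lies within the first part of the gene, from the long form shown above. The offset rests on the long transcript (44.1% GC). With the trend of all genes taken instead at the GC content of its other transcripts, from 36.5% to 57.5%, the change left over ran from 1.05 down to 0.17, always above 0.

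MALAT1, the speckle lncRNA encoded downstream of NEAT1 (ENSG00000251562, chromosome 11, 65497688 to 65506516, plus strand, a lincRNA of 8829 bases), was not called in the group fit. It stood at 215, 216 and 187 CPM in shCTRL and at 204, 208 and 233 CPM in shFITM2. The groups overlapped: the lowest value was that of shCTRL replicate 3 and the highest that of shFITM2 replicate 3. For MALAT1 this gave a log2 fold change of 0.06 ± 0.0800 (−0.11 to 0.24; adjusted p = 0.554), an interval that leaves room for changes of up to 0.24 upward. With the GC offset MALAT1 was called higher, at 0.41 ± 0.0484 (0.31 to 0.51; adjusted p = 1.67e-05), since genes of its GC content fell by 0.35 on the log2 scale. The ratio of NEAT1 to MALAT1 counts within a library, which no scaling of libraries touches, was 0.858, 0.832 and 0.934 in shCTRL and 1.31, 1.27 and 1.20 in shFITM2. In counts, not per length, NEAT1 was thus below MALAT1 in every shCTRL library and above it in every shFITM2 library. Per kilobase of the annotated gene length, 22767 bases for NEAT1, it stayed below MALAT1 in both groups. That order rests on the length taken for NEAT1, and levels over a shorter annotated transcript, such as that of 3441 bases, were not computed.

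**Figure D3:**
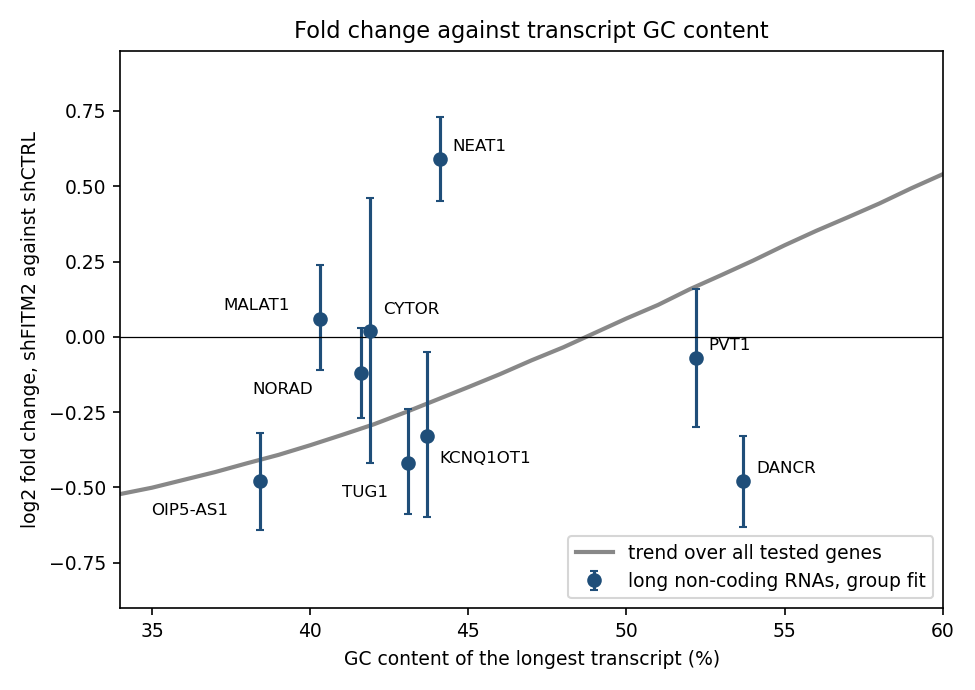
Log2 fold change of each lncRNA in the group fit (points, with 95% intervals) against the GC content of its longest transcript, with the trend of all tested genes at that GC content as a grey line. NEAT1 lies furthest above the line and DANCR furthest below it, and the intervals of OIP5-AS1, KCNQ1OT1, TUG1 and CYTOR take in the line.

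Among the lncRNAs tied to a chromosomal domain, KCNQ1OT1 (ENSG00000269821, chromosome 11, 2608328 to 2699994, minus strand, annotated as antisense, 91667 bases without an intron) was slightly lower. Its level was 13.1, 17.2 and 14.5 CPM in shCTRL and 11.5, 12.02 and 12.3 CPM in shFITM2, from 209 to 318 reads per library. The groups did not overlap, but the lowest control lay close to the highest knockdown library. The log2 fold change of −0.33 ± 0.125 (−0.60 to −0.05) had an adjusted p of 0.0489, at the edge of the threshold, and was called in 2 of 6 fits that left out 1 library. With the GC offset it was −0.10 ± 0.117 (adjusted p = 0.559), and its fall did not hold there. KCNQ1, the potassium channel gene on the opposite strand, whose exons share 121 bases with it, was higher in the group fit (0.57 ± 0.113; adjusted p = 0.0017) and was not called with the offset (−0.13; adjusted p = 0.291). Whether counting used the strand is not given in the sources used here, and without it reads from shared bases of KCNQ1OT1 and KCNQ1, or of OIP5-AS1 and OIP5, cannot be told apart. CDKN1C, a cell cycle inhibitor of the same imprinted domain 183 kilobases away, rose from 5.41 ± 0.765 to 12.8 ± 0.183 CPM. It was called in both fits, at 1.24 ± 0.140 (adjusted p = 8.17e-05) and 0.53 ± 0.132 (adjusted p = 0.00645). Allele-specific expression cannot be read from gene counts.

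PVT1 (ENSG00000249859, chromosome 8, 127794533 to 128101253, plus strand, a lincRNA with 5493 exonic bases) was not called in either fit. It stood at 34.9, 28.9 and 27.7 CPM in shCTRL and at 30.2, 29.4 and 27.4 CPM in shFITM2. The knockdown values fell within or just below the control range, and the highest control, replicate 1, stood apart from the others. PVT1 had a log2 fold change of −0.07 ± 0.106 (−0.30 to 0.16; adjusted p = 0.592), and −0.24 ± 0.0966 with the GC offset (−0.45 to −0.04; adjusted p = 0.0726). Without shCTRL replicate 3 the offset fit called it, at −0.33 (adjusted p = 0.00172). Its 25 annotated transcripts range from 40.0% to 62.4% GC, and the change left over after the trend ran from 0.29 to −0.72, so its sign depended on the transcript taken. MYC, 53.1 kilobases before PVT1 on the same strand, likewise showed no call, at 139 ± 29.6 CPM in shCTRL and 142 ± 5.26 CPM in shFITM2 (0.03 ± 0.134; adjusted p = 0.876).

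On the other side of MYC, the interval that RefSeq gives to CCAT1 (chromosome 8, 127207382 to 127219268, GRCh38.p14) lies inside the span of CASC19, another colorectal cancer lncRNA (127072694 to 127227541, minus strand). Annotated CASC19 exons cover 2795 of the 11887 bases of that interval. The CASC19 count is not a measure of CCAT1, and how much of it arose within the CCAT1 interval cannot be told from gene counts. CASC19 stood at 134, 135 and 109 CPM in shCTRL and at 54.5, 57.4 and 57.4 CPM in shFITM2. All 3 knockdown libraries were far below the controls, and the log2 fold change was −1.16 ± 0.0914 (adjusted p = 2.08e-05), or −0.87 ± 0.0608 with the GC offset (adjusted p = 1.62e-07). This fall was called under each of the 23 alternative settings. PCAT1, a low-abundance lncRNA on the opposite strand that spans the same interval, was not called in the group fit (0.31 ± 0.160; adjusted p = 0.125) and was called higher with the offset (0.45 ± 0.159; adjusted p = 0.0434).

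TUG1 (ENSG00000253352, chromosome 22, 30969245 to 30979395, plus strand, annotated as a bidirectional-promoter lncRNA of 10151 bases) fell in both fits, but less so with the GC offset. It stood at 199, 194 and 164 CPM in shCTRL and at 135, 141 and 141 CPM in shFITM2. The knockdown libraries agreed closely, and shCTRL replicate 3 lay nearest to them. The log2 fold change was −0.42 ± 0.0800 (−0.59 to −0.24; adjusted p = 0.00141), and −0.17 ± 0.0521 with the offset (−0.28 to −0.06; adjusted p = 0.0236). With the offset, the call did not survive leaving out shCTRL replicate 1 (−0.13; adjusted p = 0.126) or shFITM2 replicate 1, 2 or 3 (adjusted p = 0.107, 0.07 and 0.0914). Over its 20 annotated transcripts, from 40.7% to 51.2% GC, the change left over after the trend ran from −0.08 to −0.53. The −0.53 end rests on a single transcript of 375 bases, and the next highest in GC stood at 44.6%. NEAT1 and TUG1 are alike in GC content of their longest transcripts but moved apart: the ratio of their counts was 0.929, 0.927 and 1.06 in shCTRL and 1.97, 1.88 and 1.98 in shFITM2.

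The TUG1 promoter is shown because its divergent partner gave a measurement from the same region. The window is that of RefSeq (GRCh38.p14, chr22:30969015-30969314, plus strand), with CG dinucleotides in capitals.
TUG1 promoter: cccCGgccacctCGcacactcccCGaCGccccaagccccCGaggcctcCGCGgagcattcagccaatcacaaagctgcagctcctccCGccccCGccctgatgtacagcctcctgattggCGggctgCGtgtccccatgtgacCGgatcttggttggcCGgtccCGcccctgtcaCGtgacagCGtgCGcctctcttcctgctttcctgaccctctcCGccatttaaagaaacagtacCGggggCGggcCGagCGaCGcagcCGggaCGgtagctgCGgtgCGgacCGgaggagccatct
It holds 28 CG dinucleotides, a number that 26.2% of 35116 promoter windows of that length reach, their median being 14. The RefSeq window of MORC2, a chromatin remodelling ATPase read from the minus strand, overlaps it by 10 bases. MORC2 mRNA was not called, at 47.8 ± 5.79 and 47.0 ± 3.64 CPM (−0.02 ± 0.102; adjusted p = 0.864; −0.15 with the offset, adjusted p = 0.2). The difference between the TUG1 and MORC2 changes was not tested.

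Among the lncRNAs that act mainly in the cytoplasm, NORAD (ENSG00000260032, chromosome 20, 36045622 to 36050960, minus strand, 5339 bases) was measured from 11634 to 14911 reads per library, the deepest of the set. It stood at 724, 807 and 682 CPM in shCTRL and at 664, 684 and 691 CPM in shFITM2. The groups overlapped through shCTRL replicate 3. The difference for NORAD was −0.12 ± 0.0699 on the log2 scale (−0.27 to 0.03; adjusted p = 0.183), which did not pass. Leaving out shCTRL replicate 3 gave a call, at −0.18 (adjusted p = 0.000899). With the GC offset the direction turned, to 0.19 ± 0.0441 (0.10 to 0.28; adjusted p = 0.00404), so the direction for NORAD depended on the offset. The mRNA of its protein partner PUM2 fell (−0.47 ± 0.0750; adjusted p = 0.00049) and was also called lower with the offset, at −0.13 (adjusted p = 0.037). Of the 5 partner genes listed for NORAD and OIP5-AS1, 0 rose and 4 fell in the group fit (median −0.20), and 1 rose and 2 fell with the offset (median −0.08).

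OIP5-AS1 (ENSG00000247556, chromosome 15, 41283990 to 41309737, plus strand, 12673 exonic bases) fell in the group fit only. It stood at 132, 149 and 129 CPM in shCTRL and at 96.9, 99.0 and 98.1 CPM in shFITM2, so that the lowest control was well above the highest knockdown library. On the log2 scale the change was −0.48 ± 0.0736 (−0.64 to −0.32; adjusted p = 0.000395). Genes of its low GC content fell by 0.41 on the log2 scale, and with the offset −0.07 ± 0.0517 was left (−0.18 to 0.04; adjusted p = 0.362). The offset rests on its longest transcript, which is also its lowest in GC: over its 10 annotated transcripts, from 38.4% to 52.6% GC, the change left over ran from −0.07 to −0.67. OIP5, a centromere protein gene on the opposite strand that shares 470 exonic bases with it, had 535 to 688 reads per library and was also lower in the group fit alone (−0.23 ± 0.0823; adjusted p = 0.0372; −0.14 with the offset, adjusted p = 0.184). ELAVL1 mRNA was likewise called lower in the group fit alone (−0.20 ± 0.0704; adjusted p = 0.035; −0.08 with the offset, adjusted p = 0.329).

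DANCR (ENSG00000226950, chromosome 4, 52712404 to 52720351, plus strand, 2285 exonic bases) fell in both fits, and more so with the GC offset. It stood at 87.4, 86.5 and 90.8 CPM in shCTRL and at 63.6, 65.0 and 61.3 CPM in shFITM2. Both groups were tight, with an SD of 2.27 and 1.87 CPM, and lay far apart. The log2 fold change was −0.48 ± 0.0701 (−0.63 to −0.33; adjusted p = 0.000304), and −0.72 ± 0.0552 with the offset (−0.83 to −0.60; adjusted p = 3.5e-07), since genes as rich in G and C rose by 0.24. It ran from −0.50 to −0.46 in the group fit with any 1 library left out. Its 5 annotated transcripts range from 41.2% to 61.3% GC, and the change left over after the trend at those values was −0.16 and −1.08, below 0 at both ends. Within libraries the ratio of DANCR to PVT1 counts, lncRNAs of like GC content, was 2.50, 2.99 and 3.28 in shCTRL and 2.10, 2.21 and 2.24 in shFITM2. SNORA26, the small nucleolar RNA in a DANCR intron, had 2 to 8 reads per library and was not tested.

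CYTOR (ENSG00000222041, chromosome 2, 87454781 to 87636740, plus strand, 17693 exonic bases) was not called, at the lowest depth of the set (82 to 132 reads per library). It stood at 6.20, 5.36 and 6.39 CPM in shCTRL and at 4.50, 5.92 and 7.79 CPM in shFITM2. The knockdown libraries spread around the controls on both sides. The log2 fold change was 0.02 ± 0.202 (−0.42 to 0.46; adjusted p = 0.949) and 0.31 ± 0.191 with the offset (−0.10 to 0.71; adjusted p = 0.255), so changes within those intervals could not be detected with these libraries. The coefficient of variation was 9.23% in shCTRL and 27.1% in shFITM2. CYTOR shares stretches of sequence with MIR4435-2HG, and the longest run without a mismatch between their transcripts is 432 bases, of which the first 80 are shown.
CYTOR: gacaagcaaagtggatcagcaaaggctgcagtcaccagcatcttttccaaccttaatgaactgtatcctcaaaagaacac
Of all 50-base words in the 38 annotated CYTOR transcripts, 16% also occur in the 25 transcripts of MIR4435-2HG, and 21.6% of the words of MIR4435-2HG occur in CYTOR. How reads from such stretches were shared out is not given in the sources used here, and both values are uncertain for that reason. MIR4435-2HG was called lower in both fits, falling from 7.16 ± 0.363 to 4.45 ± 0.846 CPM (−0.68 ± 0.176; adjusted p = 0.00769; −0.67 with the offset, adjusted p = 0.00864).

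The nearest tested protein-coding genes on each side of the 9 lncRNAs are 16 genes, since NEAT1 and MALAT1 lie between the same pair. Only genes wholly outside the lncRNA were taken, so the overlapping genes KCNQ1 and OIP5 are not among them. Nearest does not mean adjacent: distances ran from 0.947 kilobases (MORC2 and TUG1) to 1740 kilobases (FAM49B and PVT1). In the group fit 5 of the 16 were called higher and 5 lower (median log2 fold change 0.00). That is 62.5%, beside 48.7% of all tested genes. With the GC offset 1 was higher and 2 lower (median −0.05), or 18.8% beside 29.2% of all genes. The difference between these shares was not tested. The 3 called in both fits were CDKN1C, described above, CHP1 and ERVMER34-1. CHP1, a calcium-binding regulator of sodium-proton exchange that ends 2.10 kilobases before OIP5-AS1 on the same strand, fell by 0.47 ± 0.0751 on the log2 scale (adjusted p = 0.000496), and by 0.39 with the offset (adjusted p = 7.84e-05). ERVMER34-1, an envelope gene of endogenous retroviral origin 2.27 kilobases from DANCR on the opposite strand, fell from 9.89 ± 1.07 to 4.58 ± 0.219 CPM (−1.11 ± 0.150; adjusted p = 0.000198; −0.94 with the offset, adjusted p = 0.000236). FRMD8, which lies 9.25 kilobases before NEAT1 on the same strand, was higher in the group fit (0.47 ± 0.0924; adjusted p = 0.00156) and was not called with the offset (−0.12; adjusted p = 0.146), where NEAT1 was.

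**Figure D4:**
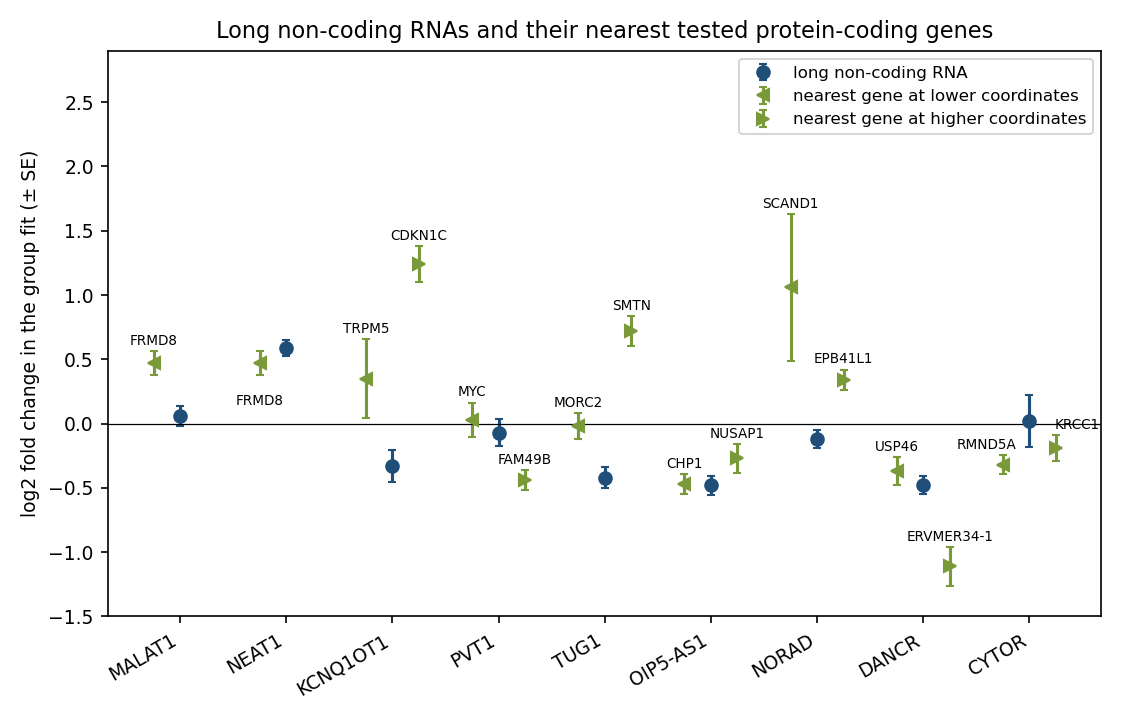
Log2 fold change in the group fit (± SE) of each lncRNA (blue circles) and of the nearest tested protein-coding gene at lower and at higher coordinates (green triangles pointing left and right), for the neighbours reported here. Of the neighbours called in both fits, ERVMER34-1 is lower along with DANCR and CHP1 along with OIP5-AS1, whereas CDKN1C is higher and KCNQ1OT1 lower. With the GC offset, not drawn here, OIP5-AS1 (−0.07) and KCNQ1OT1 (−0.10) were not called. A link between a lncRNA and its neighbour was not tested.

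For the proteins that these lncRNAs bind, the mRNA counts of listed genes were read, and protein levels are not part of these data. Of 16 paraspeckle protein genes, 7 rose and 4 fell in the group fit (median log2 fold change 0.16), and 8 rose and 0 fell with the GC offset (median 0.14). TAF15, an RNA-binding protein, rose by 0.60 ± 0.0979 (adjusted p = 0.000618), and by 0.49 with the offset (adjusted p = 0.00234). HNRNPA1, a splicing regulator, rose by 0.35 ± 0.0595 (adjusted p = 0.000733), a value made uncertain by its many processed copies in the genome. NUDT21, a cleavage factor subunit that acts at poly(A) sites, fell by 0.43 ± 0.0751 on the log2 scale (adjusted p = 0.000812) and was at 0.01 with the offset (adjusted p = 0.865). Of 12 genes for speckle and SR proteins that bind MALAT1, 2 rose and 7 fell (median −0.25), and 3 rose and 4 fell with the offset (median −0.00). SON, a core speckle protein (−0.68 ± 0.0640; adjusted p = 4.1e-05), and the splicing factors SRSF2 (−0.63 ± 0.0648; adjusted p = 5.56e-05) and SRSF1 (−0.86 ± 0.101; adjusted p = 0.000106) fell in both fits, with −0.62, −0.49 and −0.53 under the offset. RBM25, another splicing factor, fell in the group fit alone (−0.40 ± 0.0664; adjusted p = 0.000592; −0.01 with the offset, adjusted p = 0.908).

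Genes of nuclear RNA decay, the exosome and its nuclear adaptors, were lower for 10 of 18 and higher for 1 in the group fit (median −0.27), and lower for 6 and higher for 5 with the GC offset (median −0.18). EXOSC8 and EXOSC9, exosome core subunits, and MTREX, its RNA helicase, fell by 0.57, 0.59 and 0.57 on the log2 scale (adjusted p = 0.000511, 0.000698 and 0.000347) and were called lower with the offset too, where EXOSC8 was at −0.41, EXOSC9 at −0.28 and MTREX at −0.19. PABPN1, the nuclear poly(A)-binding protein, rose from 24.1 ± 1.15 to 48.7 ± 4.16 CPM (1.02 ± 0.0943; adjusted p = 3.71e-05; 0.80 with the offset, adjusted p = 5.35e-06). Overlaps of PABPN1 and of the other genes outside the set with their own neighbours were not examined. Of 11 genes of the polycomb complex PRC2, 2 rose and 6 fell (median −0.25), and 2 rose and 4 fell with the offset (median 0.04). Its subunits SUZ12 (−0.73 ± 0.0765; adjusted p = 5.92e-05), EED (−0.46 ± 0.0846; adjusted p = 0.00107) and EZH2 (−0.38 ± 0.0656; adjusted p = 0.000804) fell in both fits, to −0.31, −0.33 and −0.20 with the offset. RBBP4 and RBBP7 of the same list fell in the group fit alone (−0.25 and −0.27), and stood at 0.06 and −0.11 with the offset. PHF1, an accessory subunit, rose in both fits (0.82 ± 0.0878; adjusted p = 6.65e-05; 0.28 with the offset, adjusted p = 0.0263). The counts of all these lists stand beside the 48.7% and 29.2% of all genes called.

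The set was also placed beside other lncRNAs. Of 28 other characterised lncRNAs tested, 6 rose and 8 fell in the group fit (median −0.20), and 5 rose and 5 fell with the GC offset (median 0.00). DLEU2, a host of tumour-suppressive microRNAs, fell from 8.08 ± 0.472 to 4.00 ± 0.416 CPM (−1.01 ± 0.157; adjusted p = 0.000421), and MIR17HG, the host of a growth-promoting microRNA cluster, from 8.71 ± 1.74 to 4.43 ± 0.322 CPM (−0.98 ± 0.180; adjusted p = 0.00112). HOXA-AS2, an antisense RNA of the HOXA cluster, rose by 0.63 ± 0.0963 (adjusted p = 0.000389). All 3 were called in both fits, DLEU2 at −0.93, MIR17HG at −0.54 and HOXA-AS2 at 0.35 with the offset. FGD5-AS1, an antisense lncRNA, was likewise lower (−0.40 ± 0.0738; adjusted p = 0.00113; −0.14 with the offset, adjusted p = 0.0372). Of all 1699 tested genes of lncRNA biotypes outside the set, which include the 28 above, 174 were higher and 138 lower (18.4% called, median 0.01). With the offset 9.01% of them were called. Those genes were not matched to the 9 lncRNAs in level.

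The genes most like NEAT1 and MALAT1 across libraries were sought by the root-mean-square difference between deviations from the gene's own mean log2 CPM, over 6 libraries and 10549 other genes with a mean of at least 5 CPM. For NEAT1 they were GPKOW (0.024), ACSS1 (0.047) and UBXN1 (0.049), with fold changes of 0.58, 0.64 and 0.51 on the log2 scale and 56.7% to 58.7% GC, well above the 44.1% of NEAT1. For MALAT1 they were PCTP (0.03), NUDT4 (0.032) and PPM1H (0.034), none of them called. This likeness over 6 libraries in 2 groups describes these libraries and carries no test.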

How the data were processed

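RNA of 3 shCTRL and 3 shFITM2 libraries of HT29 was isolated with Trizol and sequenced from strand-keeping NEBNext libraries, per the labels' protocols. The authors deposited 1 table of raw read counts per gene for all 6 libraries. The deposited table also gives an annotated gene length, a value of another kind than the counts, which was used only for levels per kilobase. Per the submitters' processing notes the tools were featureCounts 1.5.0-p3, HISAT2 2.0.5, DESeq2 1.16.1 and StringTie 1.3.3b, with no role given, and the build hg19. All 58735 genes with an Ensembl identifier, however, carry the GRCh38 position of GENCODE release 29, and coordinates are given on GRCh38. The sample titles gave the groups and the replicate numbers.

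Genes passed the edgeR expression filter (minimum count 10, minimum total 15). Counts were scaled by TMM and tested with edgeR's quasi-likelihood F-test (R 4.3.3, edgeR 4.0.16 with limma 3.58.1; robust, with group alone in the design), with Benjamini-Hochberg adjustment over all 14809 tested genes. For the GC offset, every library's log2 CPM deviations were smoothed against transcript GC by a spline with 6 degrees of freedom. Each gene was represented by its longest coding transcript in GENCODE, or by its longest transcript where none codes. This covered 14635 genes (98.8%). CPM values use TMM library sizes. The trend of all genes at a given GC content is the mean of the smoothed values over shFITM2 libraries minus that over shCTRL libraries. The change left over is the fold change of the group fit minus this trend. The script was tested on simulated data. Alternatives were other scalings (DESeq2 size factors, library totals), filters (none, mean of at least 1 CPM) and tests (DESeq2 1.42.0, limma-voom), removal of mitochondrial genes, GC with length in the offset, the replicate number as a block, and each library left out.

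The lncRNAs, the gene lists and these tests were chosen with earlier results of these data known. Named were every lncRNA of the set, FITM2, nearest tested coding neighbours, overlapping genes, MIR4435-2HG, MYC, CDKN1C and KCNQ1, up to 4 tested genes of each list with the smallest p, and 3 genes most like MALAT1 or NEAT1. Some genes named by this rule are not reported here. CASC19 and PCAT1 were added for the CCAT1 interval after the table was read. Sequences came from GENCODE release 29 transcripts and RefSeq's promoter table (GRCh38.p14).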

Additional observations from a re-analysis of the deposited data

How the results depend on the processing

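NEAT1 and DANCR kept their direction and call under all 23 alternatives, and FITM2 its fall. With the GC offset, with GC and length in the offset, and with the GC offset and replicate block, 3 lncRNAs were higher and 2 lower, in place of 1 and 4. With the offset and 1 library left out, 3 were higher (3 to 3) and 1 to 3 lower. NORAD turned to 0.19 with the offset, 0.21 with GC and length, 0.19 with the offset and replicate block, and 0.17, 0.22, 0.18, 0.19, 0.18 and 0.20 with the offset and shCTRL 1, 2, 3 or shFITM2 1, 2, 3 left out. OIP5-AS1 lost its call in all 9 fits with an offset and KCNQ1OT1 in 19 of 23 alternatives. The number of called neighbours fell from 10 to 3 with the offset, while the share of all genes called fell from 48.7% to 29.2%. The labels do not say whether the replicate numbers pair the libraries. Deviations of same-numbered libraries correlated at −0.041, −0.007 and −0.065, and those of differently numbered ones at −0.031 to 0.062. With 3 libraries per group these values cannot settle whether libraries were handled in pairs. With the replicate block 4 of 9 were called, KCNQ1OT1 being lost (−0.32; adjusted p = 0.0674). Changes near 0 changed sign: CYTOR was at −0.02 with limma-voom, −0.0039 with the replicate block, −0.06 without shCTRL replicate 2 and −0.20 without shFITM2 replicate 3; PVT1 was at 0.03 without shCTRL replicate 1 (range −0.14 to 0.03 with 1 library left out), and MALAT1 at −0.01 without shCTRL replicate 3 and −8.4e-05 without shFITM2 replicate 3 (range −0.01 to 0.09). The cause of these shifts was not tested. CYTOR had 82 to 132 and KCNQ1OT1 209 to 318 reads per library, the lowest of the set.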
